A study of Mus musculus with 16 samples.

Results

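The mouse miRNAs named miR-297, miR-466, miR-467 and miR-669 belong to a repeat-derived cluster that is hosted largely by an intron of Sfmbt2. The rule for the members used names only, with any letter, arm or star suffix. On the array they made up 39 of 611 mouse miRNAs, with 3 names of the miR-297 family, 14 of the miR-466 family, 10 of the miR-467 family and 12 of the miR-669 family. The question was which of them, and which arms of their precursors, gave a signal above background in mouse embryonic fibroblasts, and whether that signal differed with passage, genotype or oxygen.

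Sfmbt2 encodes a polycomb group protein and is an imprinted gene that is expressed from the paternal allele in the placenta. Its intronic miRNA array is specific to rodents and grew by tandem duplication, so many members differ by only a few bases and several carry runs of CA or UG repeats. The cluster is known from embryonic stem cells and the placenta. A miRNA precursor is a hairpin whose left arm gives the 5p and whose right arm gives the 3p miRNA, and a star in older names marks the arm that was thought to be the less abundant. Within these families, miR-467 miRNAs are known to act against the antiangiogenic matrix protein thrombospondin, and miR-669a is known to target MyoD, the master factor of the skeletal muscle lineage.

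Total RNA of primary mouse embryonic fibroblasts (MEFs) was hybridised to 16 one-colour miRNA arrays. The cells were WT or Ercc1-/-, from congenic embryos of a mixed FVB/n and C57Bl/6 background, and were harvested at passage 3 (P3) or passage 7 (P7) after culture in 3% or 20% O2. Ercc1-/- cells lack a subunit of the XPF-ERCC1 endonuclease, which acts in DNA repair, and in the study's design late passage in 20% O2 is the condition that drives them to senescence. Each of the 8 groups of genotype, passage and oxygen had 2 arrays, 1 for each of 2 independent cell lines, so the spread is that between lines and, since the lines were on different slides, also that between slides. The 8 groups were thus WT P3, WT P7, Ercc1-/- P3 and Ercc1-/- P7, each in 3% and in 20% O2, and no group received another agent. The null allele was constitutive, and Ercc1 mRNA is not read by a miRNA array, so the genotype was not checked here. Embryonic fibroblast cultures are mixed populations, and with bulk RNA, fewer cells of a type and less of a miRNA per cell cannot be told apart.

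By the RefSeq annotation of the GRCm38.p6 assembly, 71 miRNA genes of the 4 families lie within Sfmbt2 on chromosome 2, and 10 lie elsewhere. Of the 39 names on the array, 30 had all their annotated copies within Sfmbt2. For 5 names (miR-466i, miR-466j, miR-466k, miR-467f and miR-467g) the annotated copy lies on another chromosome. The names miR-466f-3p and miR-466f-5p have copies in both places, and miR-466a-3p and miR-466a-5p had no gene entry by name. The number of copies differed widely, with 12 for miR-669a, 10 for miR-467a and 1 for miR-669c and miR-669f. A probe for a name with several copies reads them together.

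Mature sequences could be matched for 5 names only, and these are shown so that the repeat content can be seen beside detection. They are the 5 names whose annotated copy lies outside Sfmbt2, so they do not show the sequences of the names within it. The sequences are from RefSeq on GRCm38.p6, 5′ to 3′, with the seed (bases 2 to 8) in capitals. The other 34 names are given by name only. RefSeq gives miR-466i as the 3p arm, at chr13:17747552-17747573 on the plus strand, and miR-467f lies at chr11:69635419-69635439 on the minus strand. These 2 were above background on some arrays.
miR-466i: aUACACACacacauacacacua
miR-467f: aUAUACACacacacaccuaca
The other 3, miR-466j at chr10:60960802-60960824 and miR-466k at chr3:85467396-85467418 on the plus strand and miR-467g at chr5:34732872-34732892 on the minus strand, were above background on no array.
miR-466j: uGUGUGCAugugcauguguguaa
miR-466k: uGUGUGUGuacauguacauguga
miR-467g: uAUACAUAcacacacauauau
No seed was shared among the 5. The longest run of alternating C and A was 11 bases in miR-466i, 12 in miR-467f and 9 in miR-467g, and miR-466i and miR-467f shared a stretch of 13 bases. The other strand of the repeat was seen in miR-466j and miR-466k, with runs of alternating G and U of 7 and 9 bases. For comparison, CACACA occurred in 12 of 1674 distinct mature mouse sequences (0.717%) and UGUGUG in 28 (1.67%), read on the mature strand only. The other 34 names could not be matched among these sequences, so the shares leave them out. With such sequences, cross-hybridisation between members and with other CA-rich RNA is possible, and its part in the signals was not tested.

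Few members were above background. A miRNA was counted as above background on an array when at least a share of 0.5 of the spots of any of its probes was marked well above background by the scanner software. By this rule 14 of the 39 names were above background on at least 1 array, none on all 16, and 25 on none. Over all mouse miRNAs on the array, 308 of 611 were above background on at least 1 array and 57 on all. All 3 miR-297 names stayed at background on every array, against 4 miR-466, 5 miR-467 and 5 miR-669 names that did not. The 25 names never above background reached an unscaled signal of at most 8.51, for miR-669d, and 8 of them were below 0 on every array.

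Detection differed by arm name. Of the 7 names with a 5p suffix, 0 were above background on any array. Of the 4 names with a 3p suffix, 3 were (miR-466a-3p, miR-466f-3p and miR-669h-3p). Of the 4 star names only miR-467a* was, and of the 24 names without an arm 10 were. Both the 3p and the 5p arm had probes for miR-466a, miR-466d, miR-466f and miR-669h. For miR-466a, miR-466f and miR-669h the 3p arm was above background on some arrays and the 5p arm on none. For miR-466d neither arm was above background on any array. By locus, 10 of the 30 names with all copies within Sfmbt2 were above background on some array, as were 2 of the 5 names with their copy elsewhere.

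The number of arrays on which a member was above background also differed. MiR-467f was above background on 11 arrays, miR-669c and miR-669f on 10 each, miR-466f-3p and miR-467b on 8 each, miR-669a on 7 and miR-467a on 6. MiR-467e followed with 4 arrays, miR-466i and miR-467a* with 3 each, miR-466a-3p and miR-466g with 2 each, and miR-669b and miR-669h-3p with 1 each. MiR-669f was the only member above background on all 8 P3 arrays, and it was so on 2 of the 8 P7 arrays. In contrast, miR-669c was above background on 5 P3 and 5 P7 arrays and miR-467f on 5 and 6. For several members the call came from a single probe: 1 of 4 probes for miR-466f-3p and 1 of 2 for miR-466i, miR-467a*, miR-669b and miR-669h-3p.

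**Figure D1:**
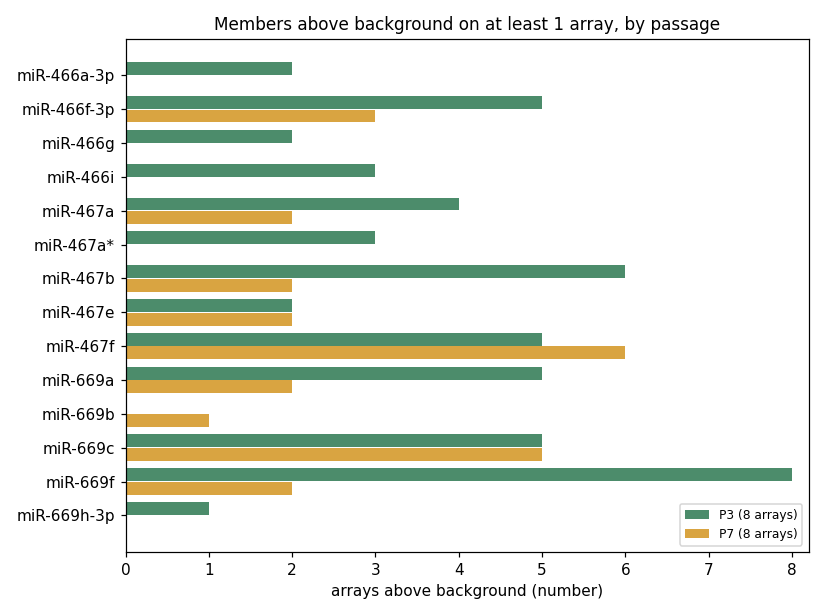
Number of arrays (x axis, of 8 at each passage) on which each of the 14 members above background on at least 1 array was so, with 1 bar for P3 and 1 for P7. MiR-669f goes from 8 P3 arrays to 2 P7 arrays, while miR-669c has 5 at both passages.

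By group, the Ercc1-/- P3 cells in 3% O2 had the most members above background, 12 on either array and 8 on both. WT P3 cells had 10 in 3% O2 and 7 in 20% O2 on either array, and Ercc1-/- P3 cells in 20% O2 had 10. At P7 the counts were 3 and 8 in WT cells in 3% and 20% O2, and 2 and 9 in Ercc1-/- cells. Over the P3 arrays 13 members were above background at least once, and over the P7 arrays 9.

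These counts moved with the brightness of the arrays. The replicate number of a sample was also its slide, and each slide held 1 array of every group. Between 7 and 11 members were above background on the P3 arrays of slide 1 and between 1 and 9 on those of slide 2. At P7 the ranges were 0 to 9 on slide 1 and 0 to 3 on slide 2. The mean unscaled log2 signal of the 57 miRNAs above background on all arrays lay between 7.91 and 9.77 on slide 1, and as low as 5.80 on slide 2, in the Ercc1-/- P7 20% O2 array. Over the 16 arrays the number of members above background and this brightness had a Pearson r of 0.747, given as a description, since the arrays share slides. For all other mouse miRNAs the same r was 0.950. Thus a member that is not above background on a dim array has only an upper limit there, and fewer members above background at P7 cannot be told apart from dimmer arrays by the counts alone.

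**Figure D2:**
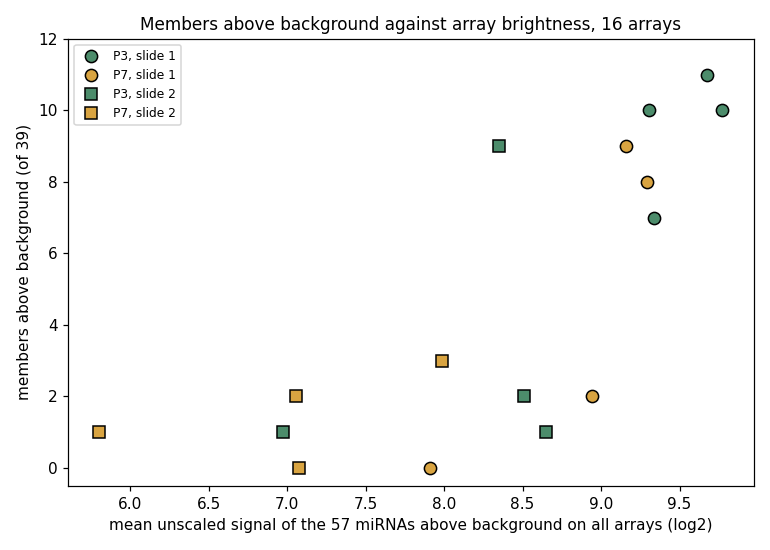
Members above background (y axis, of 39) against the mean unscaled log2 signal of the 57 miRNAs above background on all arrays (x axis), 1 point per array. Most slide 2 arrays lie at the lower left with 0 to 3 members, and the exception is the Ercc1-/- P3 3% O2 array with 9.

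Before the levels were compared, each array was multiplied by a factor that gave those 57 miRNAs the same mean log2 signal everywhere, and signals under a floor of 2.82 (1.50 on the log2 scale) were set to it. A miRNA entered the test where some group had it above background on each of its arrays, which left 235 mouse miRNAs and 8 members. The members were miR-466f-3p, miR-466i, miR-467a*, miR-467b, miR-467f, miR-669a, miR-669c and miR-669f. By locus, 5 of them have all copies within Sfmbt2, while miR-466i and miR-467f do not lie in Sfmbt2 by annotation. MiR-466f-3p, miR-466i, miR-467a* and miR-669a entered only through the Ercc1-/- P3 3% O2 group, and miR-467b only through Ercc1-/- P3 groups, so counts and medians over the 8 are no support for a direction. Calls were made with limma at an adjusted p under 0.05, with Benjamini-Hochberg adjustment over the 235.

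With passage, the mean signal of miR-669f was lower, but only 2 P7 arrays had it above background. In WT P3 cells its scaled log2 signal was 3.73 and 3.94 in 3% O2 and 4.14 and 4.77 in 20% O2 (slide 1, then slide 2). In Ercc1-/- P3 cells it was 4.50 and 4.78 in 3% O2 and 5.09 and 4.64 in 20% O2. All 8 values were above background and lay close together. At P7 it was 1.72 and 2.39 in WT cells in 3% O2 and 4.37 and 1.50 in 20% O2. In Ercc1-/- P7 cells it was 2.97 and 2.05 in 3% O2 and 4.80 and 3.49 in 20% O2. The 2 high P7 values were both from slide 1 and 20% O2, and they were the only ones above background. They overlapped the P3 values, and the slide 1 change in 20% O2 was 0.23 in WT and −0.29 in Ercc1-/- cells. On slide 2 every P7 value lay below every P3 value. The other 6 P7 values are upper limits. With each raised to the lowest signal above background on its array where that was higher, the slide 2 values reached 3.82 at most. That is below the lowest P3 value there, 3.94, but it is not a strict limit. On the slide 2 array of Ercc1-/- P7 cells in 20% O2, miR-669c at 5.10 was not above background.

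Averaged over genotype and oxygen, the P7 minus P3 change of miR-669f was −1.54 (SE 0.42, adjusted p = 0.0124 in limma). The mean log2 signal was 4.45 ± 0.47 (SD, n = 8) at P3 and 2.91 ± 1.22 (SD, n = 8) at P7. With the 6 undetected P7 arrays raised in this way the averaged change was −1.17, with −0.90 on slide 1 and −1.44 on slide 2. These are not bounds on the change. The fitted change and its slide 2 value of −2.18 rest in part on values that were not measured. In 3% O2 no P7 array was above background. By the same rule the signal was 3.42-fold lower in WT and 3.19-fold lower in Ercc1-/- cells. These folds are not minima, since other members with higher signals were not above background on these arrays. Examples were miR-466i at 3.05 on the slide 2 WT array and miR-669c at 3.47 on the slide 1 Ercc1-/- array. In 20% O2, where 1 of 2 P7 arrays was above background, the fitted change was −1.52 (SE 0.84) in WT and −0.72 (SE 0.84) in Ercc1-/- cells. It was −0.68 and −0.55 with the undetected array raised in the same way. None of the 4 passed the test alone. The adjusted p in limma was 0.647 in WT and 0.118 in Ercc1-/- cells in 3% O2, and 0.542 and 0.502 in 20% O2.

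The call on miR-669f depended on how background was handled. With normexp background correction and an offset of 50, the change was 0.29 (adjusted p = 0.438 in limma), the opposite sign. The offset was added before scaling, and the unscaled signal of miR-669f had a median of 27.5 at P3 and 4.49 at P7. The highest unscaled signals were 90.5 at P3 and 48.4 at P7, so a few lay near or above the offset. The part of the offset in this sign was not tested. Without scaling the change was −2.03, but the adjusted p of 0.0534 missed the threshold. Its 2 probes gave changes of −1.82 and −0.78.

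The lower mean of miR-669f at P7 stood within a broad shift. In the averaged passage comparison 54.9% of the 235 tested miRNAs were called, 32.3% as lower and 22.6% as higher at P7, and the median change was −0.39. Among the 8 tested members 1 was called, and the change of miR-669f lay at the 23.0th percentile of all tested miRNAs. The share of members called was thus below that of all tested miRNAs. The median of the 8 was 0.28, but it was −0.19 on slide 1 and 0.56 on slide 2, and −0.44 without scaling, where the median of all tested miRNAs was −1.14.

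MiR-467b and miR-669a had lower mean signals at P7 that did not pass the test. MiR-467b was at 2.89 and 2.51 in WT P3 cells in 3% O2 and at 3.42 and 3.03 in 20% O2, and at 3.55, 3.42, 4.13 and 3.73 in Ercc1-/- P3 cells in the same order. At P7 it was at 2.44 and 1.50 in WT cells in 3% O2, 3.39 and 1.50 in 20% O2, and 3.02, 1.96, 4.21 and 1.50 in Ercc1-/- cells. Only the slide 1 arrays of the 20% O2 groups were above background at P7, at 3.39 within the P3 values and at 4.21 just above the highest of them, so the groups overlapped. The other 6 P7 values are upper limits. The averaged change was −0.90 (SE 0.44, adjusted p = 0.0957 in limma), with −0.23 on slide 1 and −1.56 on slide 2. With the slide as a block the adjusted p was 0.0299.

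MiR-669a, the member with the most annotated copies, lay between 2.49 and 3.79 at P3 and between 2.11 and 3.71 at P7. Its averaged passage change was −0.35 (SE 0.27, adjusted p = 0.272 in limma), and the separate slides gave −0.31 (slide 1) and −0.39 (slide 2). It was above background on 5 P3 and 2 P7 arrays, and only 1 of these was from slide 2. All other values are upper limits, so the closeness of the slide values rests largely on signals that were not measured. The groups overlapped almost completely.

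In contrast, miR-669c had higher mean scaled signals at P7, without passing the test. In WT P3 cells it was at 2.94 and 2.75 in 3% O2 and at 2.78 and 2.81 in 20% O2. In Ercc1-/- P3 cells it was at 2.84 and 4.14 in 3% O2 and at 3.33 and 3.57 in 20% O2. At P7 it was at 3.56 and 3.89 in WT cells in 3% O2, 2.95 and 3.91 in 20% O2, and 3.47, 4.98, 3.78 and 5.10 in Ercc1-/- cells. The highest values came from slide 2 of the Ercc1-/- groups, and the top value, 5.10, was not above background. MiR-669c was above background on 5 P3 and 5 P7 arrays, and the values of the other arrays are upper limits. The averaged change was 0.81 (SE 0.35, adjusted p = 0.0624 in limma), with 0.47 on slide 1 and 1.15 on slide 2, and the block by slide gave an adjusted p of 0.0221. The unscaled signal went the other way, with a change of −0.15, a median of 14.1 at P3 and one of 12.1 at P7.

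MiR-466i, miR-467f and miR-466f-3p had their highest scaled values on the dimmest array. On the next dimmest, the slide 2 array of WT P3 cells in 20% O2, miR-466f-3p and miR-466i were at the floor. MiR-466f-3p was at the floor of 1.50 on 7 of the 8 P3 arrays and at 3.38 on the slide 2 array of Ercc1-/- P3 cells in 3% O2. At P7 its highest value was 4.55, on the slide 2 array of Ercc1-/- cells in 20% O2. That array was the dimmest of all, the unscaled signal of miR-466f-3p on it was 3.99, and it was not above background there. On the slide 1 arrays miR-466f-3p was above background on 6, at a scaled log2 signal of at most 1.51.

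MiR-466i ran alongside, at 3.44 on that same P3 array and 4.53 on that same P7 array, and it was above background on no P7 array. MiR-467f had its highest value, 6.06, on the same P7 array, where it was above background, and its lowest, 2.00, on the slide 1 array of Ercc1-/- P7 cells in 3% O2. MiR-467a* reached 4.28 on that dim P7 array but 3.66 on the slide 2 array of WT P3 cells in 20% O2, neither above background.

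The averaged passage changes of these members were 0.56 (SE 0.48) for miR-466f-3p, 0.51 (SE 0.49) for miR-466i, 0.49 (SE 0.52) for miR-467f and 0.07 (SE 0.44) for miR-467a*. None passed the test (adjusted p between 0.322 and 0.873 in limma). Without scaling all 4 had the opposite sign, at −0.31, −0.47, −0.40 and −0.40. Leaving out the slide 1 array of the Ercc1-/- P7 20% O2 group left the dim slide 2 array alone to stand for it. The passage comparison in Ercc1-/- cells in 20% O2 then called 5 members, and 180 of the 235 tested miRNAs in all. With both arrays it called 0 members and 3 miRNAs.

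**Figure D3:**
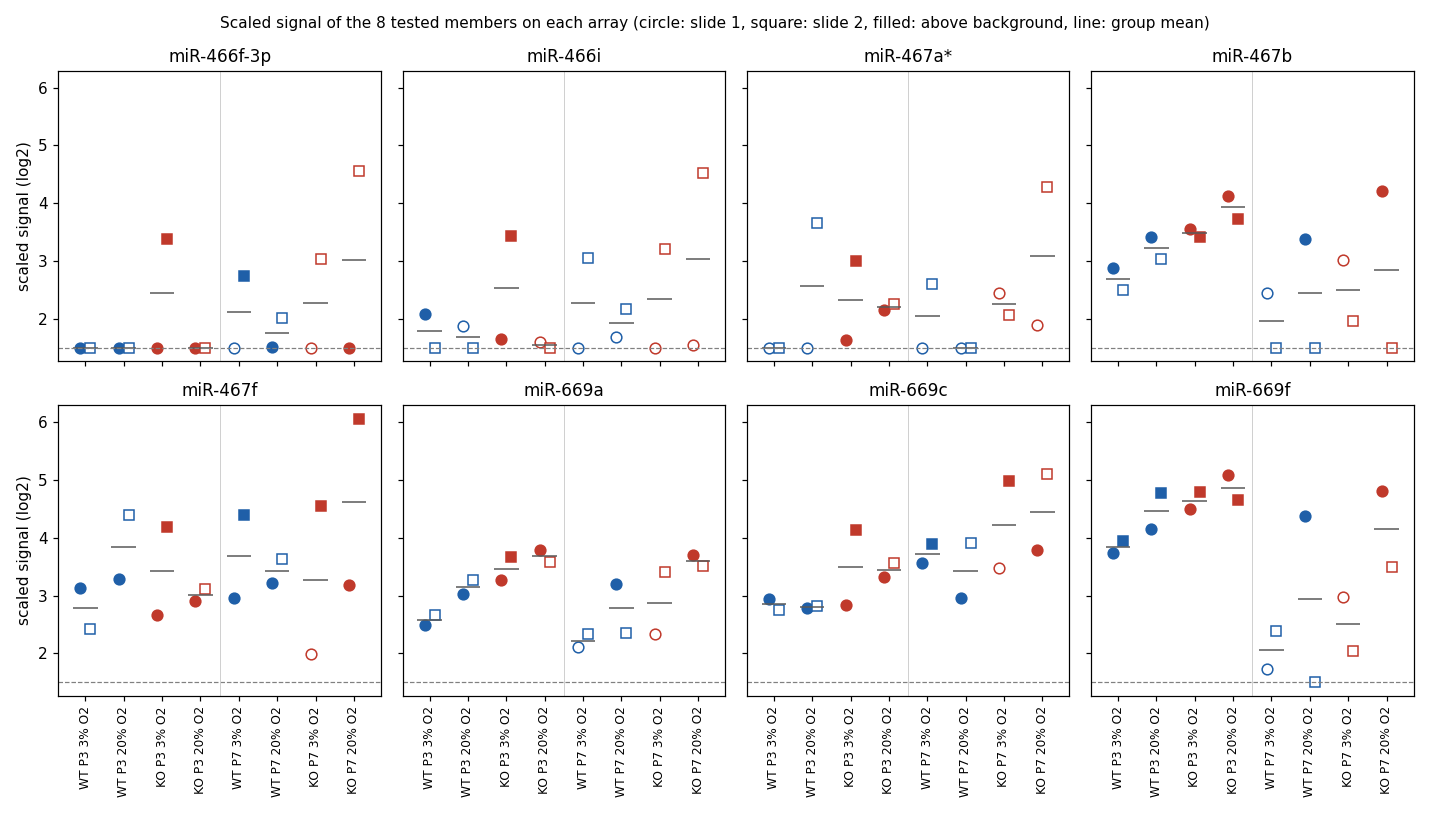
Scaled log2 signal (y axis) of the 8 tested members on each array, by group (x axis, KO for Ercc1-/-), circles for slide 1, squares for slide 2, filled where above background, short lines for group means and a dashed line for the floor at 1.50. MiR-669f is filled on all P3 arrays and on 2 P7 arrays, and the open squares of miR-466f-3p and miR-466i are highest on the Ercc1-/- P7 20% O2 array of slide 2.

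Over the 16 arrays the tested members fell into 2 patterns, given as a description only, since the points share slides, cell lines and scale. MiR-466f-3p correlated with miR-466i at a Pearson r of 0.983, with miR-467f at 0.854 and with miR-669c at 0.846. MiR-669f correlated with miR-467b at 0.813 and with miR-669a at 0.724. Between the patterns the r was negative or low, as for miR-467b with miR-466i at −0.583. The patterns crossed the families and the locus: miR-669c sided with miR-466f-3p, miR-466i and miR-467f, whereas the other miR-669 members sided with miR-467b.

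The first pattern ran against array brightness. The r of the scaled signal with the mean unscaled log2 signal of the array was −0.69 for miR-466f-3p, −0.63 for miR-466i, −0.70 for miR-467a*, −0.74 for miR-467f and −0.67 for miR-669c. It was 0.72 for miR-467b, 0.43 for miR-669f and 0.04 for miR-669a, and the median over all tested miRNAs was 0.44. The 24 tested miRNAs with high numbers (miR-680 to miR-721 and from miR-1186 on) had a median r of −0.74, like the first pattern. The part of brightness in the passage changes was not tested. The miRNAs outside the families whose scaled signal was most like the mean of the 8 members over the 16 arrays were miR-351 (r = 0.768), miR-300 (r = 0.635), miR-709 (r = 0.615), miR-296-5p (r = 0.605) and miR-574-3p (r = 0.603).

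By genotype, no tested member passed the test. Each genotype was represented by 2 cell lines, and the fit counted the arrays of a line as independent, so the SEs below may be too small. The averaged Ercc1-/- minus WT difference was above 0 for 8 of 8, with a median of 0.60, against 0.02 over all tested miRNAs, of which 1.70% were called. Since 5 of the 8 entered the test through Ercc1-/- groups alone, neither this count nor the agreement between slides and groups given here supports the sign. MiR-669a had the smallest adjusted p, 0.374 in limma, with a difference of 0.73 (SE 0.27). It was 0.57 on slide 1 and 0.88 on slide 2. In 3% O2 at P7 miR-669a was above background in neither genotype, so no difference is given there. For miR-669f the difference was 0.72 (SE 0.42), for miR-669c 0.70 (SE 0.35) and for miR-467b 0.61 (SE 0.44), with adjusted p values of 0.933, 0.838 and 0.933 in limma. MiR-466i and miR-467f were below 0 on slide 1 (−0.21 and −0.46) and above 0 on slide 2 (1.11 and 0.76).

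MiR-467a and miR-466a-3p, both named in the study, were above background on both arrays of no group and were not tested. MiR-467a was at 3.69 and 4.62 in Ercc1-/- P7 cells in 20% O2, where only the slide 1 array was above background. It was at 2.35 and 2.55 in the matching WT cells, again with only slide 1 above background. In 3% O2 at P7 it was at 2.51 and 3.88 in Ercc1-/- and at 1.60 and 2.22 in WT cells, with no array above background, so no fold is given there. At P3 the groups overlapped, with values from 1.50 to 2.65. MiR-466a-3p was above background on the slide 1 arrays of the Ercc1-/- P3 groups alone, at 2.06 in 3% and 2.73 in 20% O2, and it was at the floor on 10 of the 16 arrays.

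By oxygen, no tested member passed the test either. The averaged 20% minus 3% O2 difference was above 0 for 5 members and below 0 for 3, with a median of 0.37, against 0.05 over all tested miRNAs, of which 0.851% were called. The largest difference was that of miR-669f, 0.84 (SE 0.42, adjusted p = 1.0 in limma), with 1.37 on slide 1 and 0.31 on slide 2. In Ercc1-/- P7 cells only the slide 1 array in 20% O2 had miR-669f above background, so no fold is given there.

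**Figure D4:**
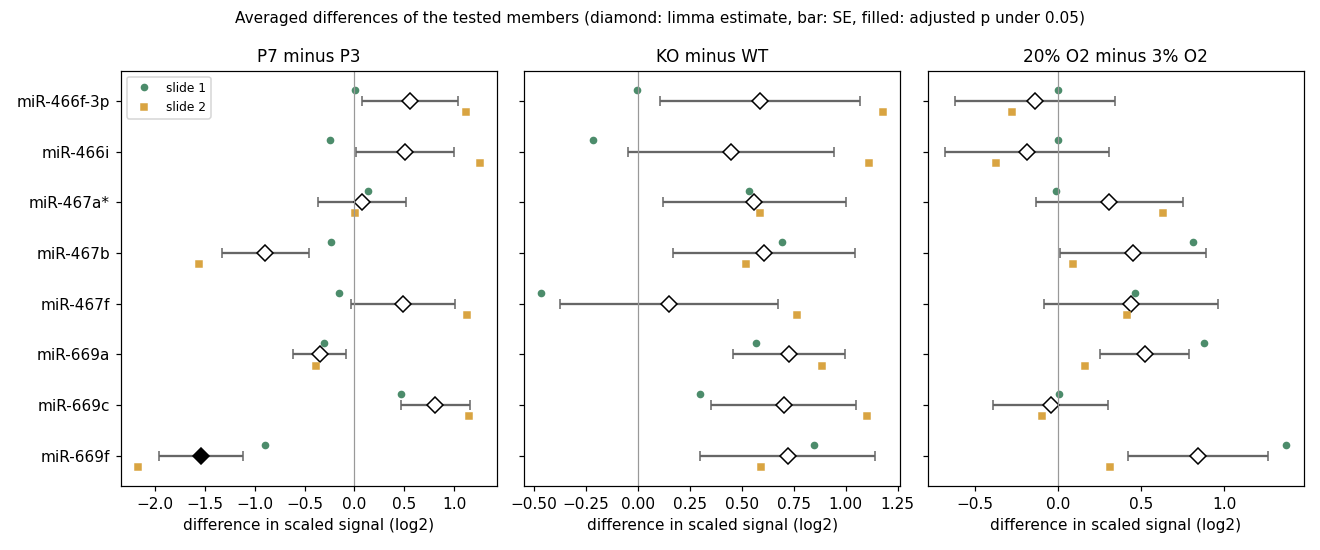
Averaged differences in scaled log2 signal (x axis) of the 8 tested members (y axis) for P7 minus P3, Ercc1-/- (KO) minus WT and 20% minus 3% O2, with diamonds and bars for the limma estimate and its SE (n = 8 against 8 arrays), circles for slide 1 and squares for slide 2. Only the passage change of miR-669f is filled (adjusted p = 0.0124), and for miR-466i and miR-467f the slides stand on both sides of 0 in the first and second panels.

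Between single groups, 0 of the 8 members were called in any of 12 comparisons. The share of all tested miRNAs called was between 0% and 1.28% in this fit. For passage it was 0% in WT cells in 3% O2, 1.28% in WT cells in 20% O2, 0% in Ercc1-/- cells in 3% O2 and 1.28% in Ercc1-/- cells in 20% O2. With the slide as a block, 43 of the 235 were called with passage in Ercc1-/- cells in 3% O2, none of them a member. For genotype it was 0% at P3 and 0% at P7 in 3% O2, 0.851% at P3 in 20% O2 and 0.426% at P7 in 20% O2. For oxygen it was 0% in all 4 comparisons. Before adjustment the limma threshold would have been passed only by miR-669f, with passage in Ercc1-/- cells in 3% O2. In the 3 tests of differences between changes (passage by genotype, passage by oxygen and genotype by oxygen), 0 members and 0% of all tested miRNAs were called, and 0 members had an unadjusted p under 0.05. With 2 arrays a group, a difference between single groups had an SE of 0.54 for miR-669a and 1.05 for miR-467f, so changes of that size were not detectable.

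How the arrays were scaled decided the sign of the passage change for several members. Without scaling, 8 of 8 had a change below 0. With the 75th percentile of all mouse miRNAs or quantile normalisation, 5 were above 0 and 3 below, as with the equal mean. With normexp all 8 were above 0, but its offset of 50 lay above most of their unscaled signals. The order was steadier than the sign, as miR-669f was the lowest of the 8 under all 7 ways of processing shown in the plot of passage changes except the total gene signal, where miR-669a and miR-467b were lower.

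**Figure D5:**
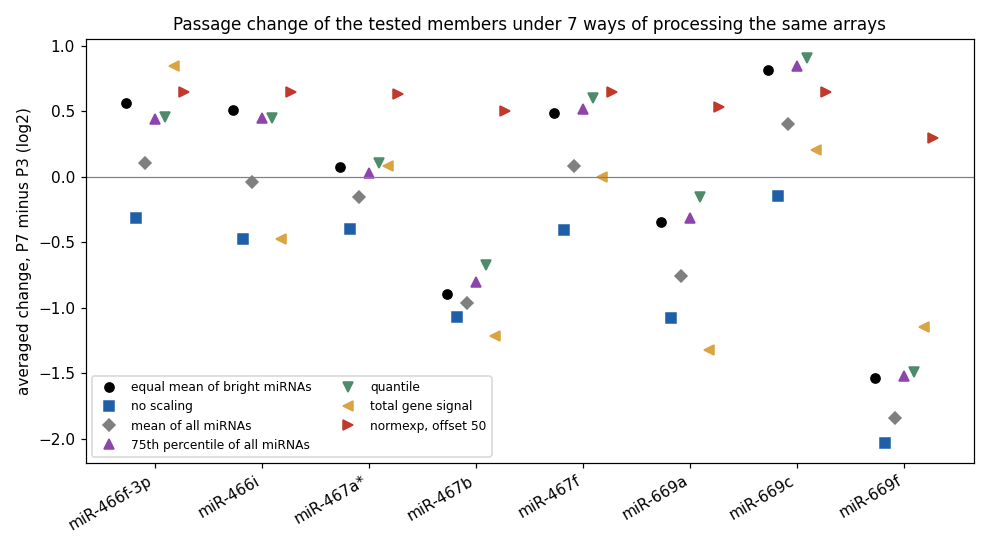
Averaged passage change (y axis, log2, P7 minus P3) of the 8 tested members (x axis) under 7 ways of processing the same 16 arrays. MiR-669f lies at −1.54 with the equal mean, −2.03 without scaling and 0.29 with normexp, and all 8 members lie below 0 without scaling and above 0 with normexp. The normexp offset of 50 lies above most of the members' unscaled signals.

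As a check of the cells, all 10 markers of mesenchymal cells were above background, 8 of them on all arrays. Of 15 embryonic stem cell miRNAs (miR-290 to miR-295 and miR-302 names), 5 were above background on some array and none on all. These 5 were miR-290-3p, miR-290-5p, miR-291a-5p, miR-291b-5p and miR-294. The others, among them miR-291a-3p, miR-295 and miR-302a to miR-302d, were above background on no array. The summed scaled signal of the list lay between 10.8 and 278 against 14820 to 27110 for the mesenchymal list. Epithelial and liver miRNAs were above background on no array, and 3 of 6 blood, 1 of 4 muscle and 1 of 4 neural miRNAs on some. The part of other cell types in the signal of the Sfmbt2 members was not tested. The miR-290 to miR-295 cluster of embryonic stem cells had 5 of 14 names above background on some array and 1 tested, which was higher at P7 (1.43, adjusted p = 0.0131 in limma).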

How the data were processed

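Intensity values were deposited by the authors as scanner output of the Agilent Feature Extraction software (10.7.1.1 per the file headers), as a background-subtracted processed signal per spot, not scaled between arrays. The deposited series table, 1 summed intensity per miRNA from the authors, was an alternative. Control and outlier spots were left out of the 13715 per array, and signals were averaged over spots, then probes. A factor per array equalised the mean log2 signal of 57 miRNAs, and scaled signals were floored at 2.82. Group means were fitted in limma 3.58.1 (R 4.3.3; 8 residual and 3.58 prior degrees of freedom), with Benjamini-Hochberg adjustment within each of 18 comparisons, checked on simulated arrays. A bound uses, per array of the dim group, the higher of the lowest signal above background and the own value. It is not a strict limit, since signals above it were at times not called above background. Normexp used spot medians, as means were not analysed here. All 39 members are accounted for. Values per array are given for tested members, miR-467a and miR-466a-3p. Members and lists were chosen with earlier results of these data known. Small array numbers limit the precision.

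Same-numbered arrays shared a slide. Slide differences correlated between groups of 1 passage (lowest r 0.475 at P3, 0.712 at P7) but not between passages (median 0.034), so the slide was a block only as an alternative.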

Additional observations from a re-analysis of the deposited data

How the results depend on the processing

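In the averaged passage comparison 1 tested member was called. No scaling called 0 (44 of all miRNAs, against 129), normexp 0 (34 of all), and testing all 611 miRNAs 0 (55 of all). The 75th percentile over detected or all miRNAs, quantile normalisation, the random block by cell line and the methods' unequal-variance test after adjustment each called 2, and the replicate block 3 (miR-467b, miR-669c and miR-669f). Leaving out 1 array gave 1 to 4 members (4 without the slide 1 array of Ercc1-/- P7 20% O2), 0 to 5 in the passage comparison of Ercc1-/- cells in 20% O2, and 0 to 2 in the genotype comparison at P7 in 20% O2 (5 and 2 without that same array). The replicate block changed no other call on a member. Over all miRNAs it called 43 in place of 0 with passage in Ercc1-/- cells in 3% O2 (32 with the random block), 7 in place of 4 for the averaged genotype difference and 5 in place of 3 with passage in Ercc1-/- cells in 20% O2. The total gene signal called 72 of all miRNAs in the averaged passage comparison. The median passage change of 0.28 was −0.44 without scaling and −0.24 with the total gene signal, and the median oxygen difference of 0.37 was −0.31 with the latter.

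Signs turned as follows. For passage, no scaling gave −0.31 (miR-466f-3p), −0.47 (miR-466i), −0.40 (miR-467a*), −0.40 (miR-467f) and −0.15 (miR-669c). The mean over all miRNAs gave −0.04045 (miR-466i) and −0.15 (miR-467a*), the total gene signal −0.47 (miR-466i) and −0.00145 (miR-467f), and a floor multiplied by 0.1 −0.20 (miR-467a*). Normexp, with its offset above most of the members' signals, gave 0.50 (miR-467b), 0.53 (miR-669a) and 0.29 (miR-669f). For oxygen, normexp gave 0.0916 (miR-466f-3p), 0.10 (miR-466i) and 0.091 (miR-669c), the lower floor 0.27 (miR-466f-3p) and −0.00631 (miR-467b), and the total gene signal −0.52 (miR-467a*), −0.24 (miR-467b) and −0.28 (miR-467f). Leaving out 1 array gave −0.22 to 0.37 for passage (miR-467a*), −0.21 to 0.51 for genotype (miR-467f), and for oxygen −0.52 to 0.25 (miR-466f-3p), −0.56 to 0.19 (miR-466i) and −0.23 to 0.14 (miR-669c). The causes were not tested. Testing only miRNAs above background on all arrays left no member. For dim members, signal over background is the limit.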
